A study of Rattus norvegicus with 9 samples.

Results

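The genes described here are Ptprb and 5 genes of the angiopoietin-Tie axis, namely the receptors Tek and Tie1, the ligands Angpt1 and Angpt2, and the kinase Bmx. They are 6 of the 21923 genes in the deposited table, were chosen by symbol with their values in these libraries already known, and each had 1 entry. Their levels are therefore given as a description, with no test. Of the 6, Ptprb, Tek, Angpt1 and Bmx passed the count filter and were among the 12364 genes fitted, while Tie1 and Angpt2 did not. Ptprb and Bmx passed through the 2 cultured groups, since their Vivo counts alone were below the filter.

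All 9 libraries came from adipose-derived stromal cells (ADSCs), mesenchymal cells that adhere to plastic, obtained by collagenase digestion of inguinal subcutaneous fat from rats carrying a GFP transgene and kept in DMEM/F12 medium plus fetal bovine serum. Con libraries (n = 3) came from passage 4 cells. Vitro libraries (n = 3) came from passage 4 cells that stayed in incubator culture with further passaging and were harvested together with the Vivo cells. Vivo libraries (n = 3) came from passage 4 cells placed in the fat of nude mice, which lack mature T cells, and recovered 7 days later. The labels give no strain, age, sex or cell number, and they do not tell if the 3 libraries per group are separate animals or cultures. Tests below therefore measure the spread between libraries, which may be technical. The host was a mouse and reads were aligned to the rat genome, so reads of host cells that were recovered with the rat cells could be counted where the sequences match.

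Angiopoietins are secreted glycoproteins that bind Tek (also called Tie2), a receptor tyrosine kinase found mainly on endothelial cells. Angpt1, made by mesenchymal and perivascular cells, activates Tek and keeps vessels quiescent, and Angpt2, made mainly by endothelial cells, acts on it as a weak agonist or an antagonist according to context. Tie1 is a related receptor that pairs with Tek. Ptprb, known as vascular endothelial protein tyrosine phosphatase (VE-PTP), is a receptor-type phosphatase that removes phosphate from Tek and from the VEGF receptor Kdr and associates with VE-cadherin at endothelial junctions. Bmx is a Tec family kinase expressed in arterial endothelium and other cells, which acts below Tek and Kdr through phosphoinositide 3-kinase. Cultured stromal cells are known in this axis chiefly as a source of Angpt1.

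Total counts per library were 17484607 to 18355242, so that 3 counts, the limit that a count of 0 allows, correspond to 0.163 to 0.172 CPM, the count relative to the library total. Intervals and floors cover counting error only. Levels below are CPM scaled by TMM, as mean ± SD with n = 3, and differences are log2 fold changes ± SE from one edgeR fit to all libraries. Stromal markers matched the label, with Thy1 at 927 ± 46.1 CPM in Con, 1071 ± 68.8 in Vitro and 848 ± 253 in Vivo and Pdgfra at 817 ± 199, 603 ± 122 and 798 ± 186. Of 12 immune markers 3 were tested and edgeR called none, with 1, 1 and 0 at an unadjusted p under 0.05 for Vivo against Con, Vivo against Vitro and Vitro against Con, where DESeq2 called 1, 0 and 0 and limma 1, 1 and 0. Their summed level was 21.8 to 25.5 CPM in Con, 22.2 to 27.6 in Vitro and 27.4 to 32.7 in Vivo. The pan-leukocyte gene Ptprc had 0 to 3 counts per library, while Cd14 had 331 to 452, and the macrophage receptor gene Csf1r was at 1.62 ± 0.423 CPM in Con, 2.00 ± 1.08 in Vitro and 4.25 ± 0.725 in Vivo (adjusted p = 0.053 for Vivo against Con). Adipocyte markers summed to 0.436 to 5.23 CPM, with 0 to 4 counts of Adipoq per library. Vivo replicate 3 stood apart: its correlation across genes with its fellow replicates was 0.949 and 0.951, where every other replicate pair reached 0.970 to 0.986, and mitochondrially encoded genes took 3.48% of its counts, against 2.07% to 2.54% elsewhere.

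Ptprb (ENSRNOG00000055293) formed 3 separate levels. It had 93, 82 and 80 counts in Con replicates 1 to 3, 269, 264 and 255 in Vitro, and 6, 5 and 4 in Vivo. The 3 groups did not overlap, and the libraries of a group lay close together. On the CPM scale the levels were 4.85 ± 0.375 in Con, 14.5 ± 1.08 in Vitro and 0.276 ± 0.0489 in Vivo. Vitro was 2.99 times Con, a log2 fold change of 1.58 ± 0.18, and Con was 17.6 times Vivo, a log2 fold change of -4.10 ± 0.24. Between the 2 groups harvested together, Vitro was 52.6 times Vivo (-5.68 ± 0.24). The Vivo level rested on 15 counts in 3 libraries, and the ratio of summed counts of Con over Vivo had a 95% exact binomial counting interval of 9.88 to 30.1 and that of Vitro over Vivo one of 31.3 to 93.3. Without Vivo replicate 3 the log2 fold changes were -4.01 and -5.58. Groups without overlap were common among the 12364 genes, at 33.5% for Vivo against Con, 35.2% for Vivo against Vitro and 21.4% for Vitro against Con, and nothing is read from them for genes chosen on these contrasts. In bulk RNA, fewer cells that carry a transcript and less transcript per cell cannot be told apart.

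Few genes separated the 2 cultured groups in this fit. Of 12364 genes 4, or 0.0324%, had an adjusted p under 0.05 for Vitro against Con. Dpysl4, Egr3 and LOC100910882 were lower in Vitro, and 0.0243% of genes were called lower and 0.00809% higher. Ptprb was chosen with this contrast known, so no test of it is given here. The names Dpysl4, Egr3 and LOC100910882 were taken after their values were seen. The count of 4 was 0 without Con replicate 1, Con replicate 3 or Vitro replicate 3, and 1 without Vitro replicate 2. It was 6 without Vitro replicate 1 and 54 without Con replicate 2. DESeq2 gave 299 and limma with sample quality weights 2690, so the count depends on the tool. In the edgeR fit 1405 genes had an unadjusted p under 0.05.

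**Figure D1:**
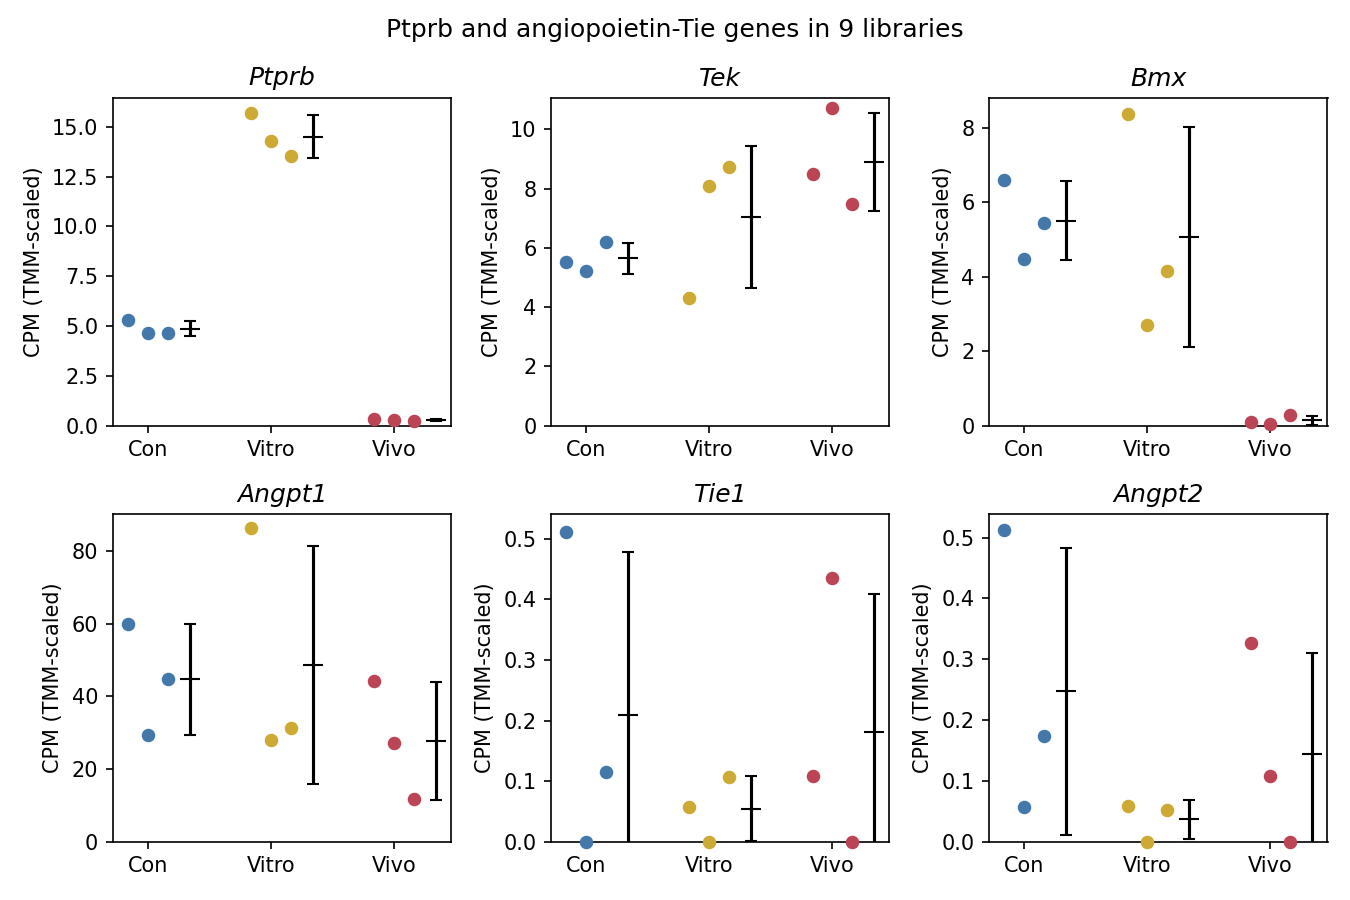
TMM-scaled CPM (vertical axes, from 0, a different scale in each panel) of the 6 genes in the Con, Vitro and Vivo groups. Each point is 1 library, in the order of replicates 1 to 3, and the black mark with its bar is the mean ± SD (n = 3, bars are drawn down to 0 at most). Ptprb forms 3 separate levels at 4.85, 14.5 and 0.276 CPM, Bmx is near 0 in Vivo alone, Tek and Angpt1 are present in every library, and Tie1 and Angpt2 do not exceed 0.512 CPM.

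Tek (ENSRNOG00000008587), the signalling receptor, was present in every library. It had 97, 92 and 107 counts in Con, 74, 150 and 164 in Vitro and 156, 197 and 131 in Vivo. All Vivo libraries lay above all Con libraries, while Vitro replicate 1 lay below Con and Vitro replicates 2 and 3 lay within the Vivo range. The means were 5.64 ± 0.508 CPM in Con, 7.04 ± 2.39 in Vitro and 8.90 ± 1.67 in Vivo, and the log2 fold changes were 0.66 ± 0.27 for Vivo against Con, 0.34 ± 0.27 for Vivo against Vitro and 0.32 ± 0.28 for Vitro against Con. The second and the third of these lie within 2 SE of 0, so neighbouring groups in this order were not separated beyond their spread. Without Vitro replicate 1 the Vivo against Vitro value was 0.08, and the Vitro against Con value was 0.58. Without Vivo replicate 2 the Vivo against Vitro value was 0.18.

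Tie1 (ENSRNOG00000020173), the partner receptor, was at the limit of detection. Its counts were 9, 0 and 2 in Con, 1, 0 and 2 in Vitro and 2, 8 and 0 in Vivo. Each group held a library with no count, and 1 library supplied most of the counts in Con and in Vivo. Summed over a group, 11 counts in Con correspond to 0.202 CPM before scaling (95% exact Poisson interval 0.101 to 0.362), 3 counts in Vitro to 0.0558 CPM (0.0115 to 0.163) and 10 counts in Vivo to 0.188 CPM (0.0902 to 0.346). The ratio of summed counts of Con over Vitro was 3.62, with a 95% exact binomial counting interval of 0.956 to 20.2. That of Con over Vivo was 1.07 (0.414 to 2.82), and that of Vitro over Vivo was 0.297 (0.0525 to 1.15). Each of these intervals includes 1, so no difference was resolved at this depth.

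The 250 bases before the annotated start of transcription are shown for Bmx and Tie1, the 2 of the 6 genes with an entry in the RefSeq promoter table (build GRCr8), because 1 of the pair is expressed in these cells in culture and the other is nearly silent in them. Ptprb, Tek, Angpt1 and Angpt2 had no entry. Capitals mark GGAA, the core bound by ETS factors, and GATAA, bound by GATA factors, on either strand, so that TTCC and TTATC are marked too. The first window lies on the plus strand at chrX:33858878-33859127 and the second on the minus strand at chr5:137304982-137305231, and both read 5′ to 3′.
Bmx: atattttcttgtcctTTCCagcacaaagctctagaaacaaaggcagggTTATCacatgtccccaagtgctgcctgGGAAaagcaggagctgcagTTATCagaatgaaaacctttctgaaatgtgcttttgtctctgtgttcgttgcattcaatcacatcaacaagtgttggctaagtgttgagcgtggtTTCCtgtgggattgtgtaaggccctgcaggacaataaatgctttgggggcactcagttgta
Tie1: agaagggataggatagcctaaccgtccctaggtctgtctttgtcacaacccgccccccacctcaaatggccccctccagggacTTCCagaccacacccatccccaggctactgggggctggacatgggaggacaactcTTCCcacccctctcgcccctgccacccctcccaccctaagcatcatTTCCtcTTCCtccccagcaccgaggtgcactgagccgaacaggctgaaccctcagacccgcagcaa
The Bmx window held 3 matches to GGAA and 2 to GATAA, and the Tie1 window 4 to GGAA and 0 to GATAA. At least 1 match to GGAA was found in 93.2% of 33469 windows of the same length and at least 1 to GATAA in 23.5%. TGTGG, the core bound by RUNX factors, matched 1 time in each window and is found in 49.2% of windows. GTAAACA of FOX factors (3.21% of windows) and TATAAA of the TATA box (12.9%) matched neither, with both strands searched, and no matches of different motifs overlapped. The GC content was 44.8% in the Bmx window and 61.6% in the Tie1 window.

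Bmx (ENSRNOG00000003705), the kinase whose promoter is printed first, was present in both cultured groups and close to 0 after re-isolation. Its counts were 116, 79 and 94 in Con, 144, 50 and 78 in Vitro and 2, 1 and 5 in Vivo. Con and Vitro overlapped, and every Vivo library lay below every cultured library. The means were 5.50 ± 1.06 CPM in Con, 5.08 ± 2.96 in Vitro and 0.150 ± 0.121 in Vivo. Con was 36.8 times Vivo (log2 fold change -5.15 ± 0.61) and Vitro was 33.9 times Vivo (-5.03 ± 0.61), against -0.12 ± 0.43 for Vitro against Con. The Vivo level rested on 8 counts, which gives 95% exact binomial counting intervals of 17.7 to 82.5 for the ratio of summed counts of Con over Vivo and of 16.8 to 78.7 for Vitro over Vivo. Vivo replicate 3 held 5 of the 8 counts, and without it the log2 fold changes were -5.98 and -5.85. The RefSeq order places the pseudogene Coa5-ps1 inside the Bmx interval, and how the authors' counting treated shared reads is not given in the sources used here. The same limit holds for Tie1 and Angpt1, which overlap the long non-coding RNA genes LOC102554074 and LOC102547184.

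Angpt1 (ENSRNOG00000005854), the activating ligand, was the most abundant of the 6 genes. Its counts were 1055, 520 and 774 in Con, 1482, 521 and 590 in Vitro and 812, 498 and 206 in Vivo. All 3 groups overlapped, and the spread within a group was wide, with the highest Vitro library at 86.3 CPM and the lowest at 28.1. The means were 44.7 ± 15.3 CPM in Con, 48.6 ± 32.7 in Vitro and 27.7 ± 16.2 in Vivo. The log2 fold changes were -0.69 ± 0.53 for Vivo against Con, -0.81 ± 0.53 for Vivo against Vitro and 0.12 ± 0.52 for Vitro against Con, each within 2 SE of 0. Single libraries set these values: without Vivo replicate 3 the first was -0.35 and the second -0.46, without Vivo replicate 1 they were -1.20 and -1.32, and without Vitro replicate 1 the second was -0.11 and the third -0.59. Without Con replicate 1 the first was -0.43.

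Angpt2 (ENSRNOG00000016696), the endothelial ligand, had 9, 1 and 3 counts in Con, 1, 0 and 1 in Vitro and 6, 2 and 0 in Vivo. The groups overlapped, and Con replicate 1 and Vivo replicate 1 held most of the counts of their groups. Summed counts of 13, 2 and 8 correspond to 0.239 CPM (95% exact Poisson interval 0.127 to 0.409), 0.0372 CPM (0.00451 to 0.134) and 0.150 CPM (0.0650 to 0.297) before scaling. The ratio of Con to Vitro was 6.42 with a 95% exact binomial counting interval of 1.45 to 58.6, but 9 of the 13 counts came from 1 library. In the RefSeq order Angpt2 lies within the interval of Mcph1, which had 187 to 394 counts per library, so reads of the 2 genes could be confused if strand was not used in counting. Angpt4, a further Tek ligand that is not among the 6, was at 44.7 ± 8.29 CPM in Con, 51.5 ± 7.30 in Vitro and 62.7 ± 22.2 in Vivo.

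The order of the genes per length was taken from the authors' FPKM values. In Con it ran from Angpt1 at 11.6 ± 3.71 FPKM over Bmx at 1.59 ± 0.345, Tek at 0.826 ± 0.0847 and Ptprb at 0.412 ± 0.0428 to Angpt2 at 0.0697 ± 0.0664 and Tie1 at 0.0427 ± 0.0548. Each step down to Angpt2 exceeded the SDs, while Angpt2 and Tie1 did not differ beyond theirs. In Vitro, Angpt1 at 12.4 ± 7.27 FPKM was followed by Bmx at 1.41 ± 0.917, Ptprb at 1.34 ± 0.0344 and Tek at 1.07 ± 0.405, and these last 3 lay within their spread. In Vivo, Angpt1 at 7.40 ± 4.38 FPKM and Tek at 1.36 ± 0.279 stood above Ptprb at 0.0262 ± 0.00791, Bmx at 0.0313 ± 0.0543, Angpt2 at 0.0271 ± 0.0248 and Tie1 at 0.0238 ± 0.0239, which lay within their spread. Bmx is listed at 0 FPKM in Vivo replicates 1 and 2, although its counts there were 2 and 1. Angpt4 reached 15.3 ± 2.85, 18.5 ± 2.81 and 22.2 ± 8.28 FPKM in Con, Vitro and Vivo. The ratio of Ptprb to Tek in FPKM was 0.498 in Con, 1.24 in Vitro and 0.0193 in Vivo.

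The genes around these 6 were grouped in 7 lists by their role. The lists were chosen with earlier results of these data known, and the adjusted p of their genes carry that limit. Of 102 listed genes found in the table, 83 were tested. For Vivo against Con 6 rose and 5 fell, or 13.3%, where 9.73% of all tested genes passed (5.17% higher and 4.56% lower), and for Vivo against Vitro 4 rose and 5 fell, or 10.8%, where 10.9% of all tested genes passed (5.38% higher and 5.52% lower). These pooled shares are near the background. Those of single lists, with 3 to 25 tested genes, ran from 0% to 66.7% against Con and from 0% to 33.3% against Vitro. Over the 83 genes the median log2 fold change was -0.10 and -0.08 in the 2 comparisons, against 0.01 and 0.02 for all tested genes. For Vitro against Con edgeR called none of the 83, with 17 at an unadjusted p under 0.05, and DESeq2 called 4 and limma with sample quality weights 27. The Vivo libraries enter both Vivo comparisons.

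Junction genes that bind Ptprb or are its substrates were led by Kdr (ENSRNOG00000046829), the main signalling receptor for VEGF-A. It had 27, 12 and 21 counts in Con, 24, 24 and 25 in Vitro and 225, 322 and 256 in Vivo. Every Vivo library was far above every cultured library, the opposite order to Ptprb. Kdr rose to 14.8 ± 2.66 CPM in Vivo from 1.14 ± 0.433 in Con, a log2 fold change of 3.69 ± 0.30 (adjusted p = 0.00023), and from 1.34 ± 0.0519 in Vitro (3.46 ± 0.30, adjusted p = 0.00018). Of the 8 tested genes of this list Ctnna1, which encodes alpha-catenin, fell against Con by 0.45 ± 0.12 on the log2 scale (adjusted p = 0.043), a call that was lost in all fits without 1 library except those without Vitro replicate 1 or Vivo replicate 3 (over 16 alternatives its adjusted p reached 0.131). Against Con the list held 3 called genes without Vivo replicate 3 and 1 without the libraries whose loss ended the call of Ctnna1. Against Vitro Kdr was the 1 called gene, with 2 called without Vivo replicate 3. The share called was 25% of the 8 against Con, where 9.73% of all tested genes passed. Against Vitro it was 12.5%, where 10.9% passed. Median log2 fold changes were -0.06 against Con and -0.02 against Vitro. Cdh5, which encodes VE-cadherin, was below the filter with 0 to 12 counts per library, and Fgd5 had 1, 0 and 0 counts in Con, none in Vitro and 11, 5 and 9 in Vivo.

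Among the receptor-type tyrosine phosphatases, 13 of 19 were tested beside Ptprb. Ptprd (ENSRNOG00000005711), a neuronal adhesion-type phosphatase, was the 1 called gene in both Vivo comparisons. It had 1162, 1157 and 1462 counts in Con, 1475, 1282 and 994 in Vitro and 354, 559 and 162 in Vivo, and no Vivo library reached the cultured range. Ptprd fell from 72.1 ± 10.9 CPM in Con and 69.3 ± 16.5 in Vitro to 19.65 ± 10.6 in Vivo, by 1.87 ± 0.36 and 1.82 ± 0.36 on the log2 scale (adjusted p = 0.014 and 0.012). The call against Con was lost without Con replicate 3 (adjusted p up to 0.0612 over 16 alternatives). The 1 called gene was 7.69% of the 13 in each Vivo comparison, where 9.73% and 10.9% of all tested genes passed. The list's median log2 fold change was -0.07 against Con and -0.45 against Vitro. Ptprj, of the same structural subfamily as Ptprb, was at 13.7 ± 1.95 CPM in Con, 14.4 ± 2.23 in Vitro and 17.5 ± 5.09 in Vivo. Of the same subfamily, Ptprq had 4, 10 and 15 counts in Con, 14, 74 and 82 in Vitro and 13, 57 and 23 in Vivo, and Ptpro had 0, 1 and 1 counts in Con, 3, 2 and 5 in Vitro and none in Vivo. Ptprn was the most abundant member, at 323 ± 52.8, 396 ± 28.4 and 348 ± 19.1 CPM.

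Ligands and modulators of the Tie receptors outside the 6 were led by Svep1, a large matrix protein reported to bind Tie1 in mouse and human studies. Svep1 had 22140, 12606 and 17324 counts in Con, 14601, 9622 and 7943 in Vitro and 8652, 8919 and 3580 in Vivo. Con lay above Vivo without overlap, and Vitro overlapped both. Svep1 fell to 387 ± 158 CPM in Vivo from 992 ± 273 in Con (log2 fold change -1.36 ± 0.37, adjusted p = 0.047), and Itga5, the fibronectin receptor subunit that also binds angiopoietins, rose from 300 ± 13.3 to 423 ± 41.2 CPM (0.49 ± 0.12, adjusted p = 0.031). Svep1 was not called without Con replicate 1, Con replicate 3, Vitro replicate 2, Vitro replicate 3 or any 1 of the Vivo replicates, and Itga5 not without any 1 of the Con replicates, Vitro replicate 2, Vitro replicate 3 or Vivo replicate 1 (over 16 alternatives the adjusted p reached 0.158 and 0.134). These were 2 of 10 tested genes, or 20% where 9.73% of all tested genes passed, with a median log2 fold change of 0.09. Without Vivo replicate 3 the count was 5, without Con replicate 2 or Vivo replicate 2 it was 1, and it was 0 without Con replicate 1, Con replicate 3, Vitro replicate 2, Vitro replicate 3 or Vivo replicate 1. For Vivo against Vitro edgeR called none of the 10, with 2 at an unadjusted p under 0.05, DESeq2 called 1 and limma 2, and the most abundant gene, the integrin gene Itgb1, stood at 2275 ± 193 CPM in Vitro and 1838 ± 217 in Vivo (adjusted p = 0.18).

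Transducers that carry the Tek signal to Akt and MAP kinases were tested for 25 of 28 genes. None was called by edgeR in any comparison, with 2, 2 and 1 genes at an unadjusted p under 0.05 for Vivo against Con, Vivo against Vitro and Vitro against Con. DESeq2 called 1, 1 and 0 of them and limma 3, 2 and 4. Rhoa, the most abundant over all libraries, was at 608 ± 21.7 CPM in Con, 619 ± 53.4 in Vitro and 647 ± 84.0 in Vivo, and Iqgap1, a scaffold protein, at 595 ± 105, 765 ± 37.6 and 410 ± 164. The medians of the log2 fold changes were -0.10, -0.14 and 0.05. Over all tested genes edgeR called 9.73%, 10.9% and 0.0324% in these comparisons. Grb2, an adaptor that most cells express, had 0 to 15 counts per library and was below the filter. No absence of expression is read from these counts, whose cause was not tested.

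Target genes of FOXO factors, which Akt restrains when Tek is active, moved both ways. Against Con 2 of 16 tested genes fell and 1 rose, or 18.8% where 9.73% of all tested genes passed. Against Vitro 3 fell and 1 rose, or 25% where 10.9% passed. Cited2, a transcriptional coregulator, fell from 140.1 ± 31.8 CPM in Con and 132 ± 12.5 in Vitro to 60.0 ± 10.3 in Vivo (-1.22 ± 0.19, adjusted p = 0.0054, and -1.14 ± 0.19, adjusted p = 0.0052). Txnip, which binds thioredoxin and limits glucose uptake, fell from 266 ± 53.4 and 293 ± 44.4 to 122 ± 25.6 CPM (-1.12 ± 0.20, adjusted p = 0.0097, and -1.26 ± 0.20, adjusted p = 0.0039). Trib1, a pseudokinase, rose from 18.3 ± 0.918 in Con and 9.09 ± 1.76 in Vitro to 34.4 ± 4.97 CPM (0.91 ± 0.18, adjusted p = 0.014, and 1.92 ± 0.18, adjusted p = 0.00027). Its call against Con was lost without Con replicate 1 or Con replicate 3 (adjusted p up to 0.0632 over 16 alternatives). Fbxo32, which encodes the ubiquitin ligase atrogin-1, fell from 30.9 ± 3.09 CPM in Vitro to 8.42 ± 4.93 (-1.87 ± 0.40, adjusted p = 0.017), a call lost without Vitro replicate 2 (adjusted p up to 0.0554 over 16 alternatives). The list's median log2 fold change was -0.23 against Con and 0.09 against Vitro.

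Among Bmx partners and the other Tec family kinases, 8 of 12 genes were tested. Tec itself had 38, 47 and 68 counts in Con, 66, 53 and 90 in Vitro and 13, 38 and 15 in Vivo. Vivo did not overlap Vitro, and Vivo replicate 2 had the same count as Con replicate 1. Tec fell from 3.83 ± 0.960 CPM in Vitro to 1.21 ± 0.748 in Vivo (-1.65 ± 0.44, adjusted p = 0.042), a call lost in every fit without 1 library except that without Vivo replicate 2 (adjusted p up to 0.138 over 16 alternatives), and stood at 2.92 ± 0.917 CPM in Con (-1.26, adjusted p = 0.10). Rufy1, an endosomal protein that Bmx phosphorylates, rose from 21.3 ± 3.20 in Con and 20.6 ± 0.366 in Vitro to 32.7 ± 5.71 CPM (0.62 ± 0.16, adjusted p = 0.044, and 0.67 ± 0.16, adjusted p = 0.030). Its call against Con was lost in all 9 fits that left out 1 library (adjusted p up to 0.153 over 16 alternatives), and its call against Vitro was lost without any 1 of the Vitro replicates (up to 0.0998). Against Con 1 of the 8 was called, or 12.5% where 9.73% of all tested genes passed. Against Vitro 2 were called, or 25% where 10.9% passed. The list's median log2 fold change was -0.16 against Con and -0.20 against Vitro.

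Of the angiopoietin-like genes, whose products share the fibrinogen-like domain but are not Tek ligands, 3 of 5 in the table were tested. Angptl4, an inhibitor of lipoprotein lipase, had 555, 1925 and 1109 counts in Con, 1513, 2896 and 2148 in Vitro and 5345, 3128 and 4256 in Vivo. It rose to 235 ± 60.5 CPM in Vivo from 68.2 ± 38.9 in Con (1.78 ± 0.40, adjusted p = 0.026), and the Vivo libraries lay above all others. Against Vitro, at 120 ± 34.5 CPM, it was not called. Angptl1 rose from 0.821 ± 0.532 in Con and 1.21 ± 0.137 in Vitro to 4.79 ± 2.29 CPM (2.54 ± 0.55, adjusted p = 0.022, and 1.98 ± 0.53, adjusted p = 0.040). Angptl4 lost its call when Vivo replicate 1, Con replicate 1 or Con replicate 3 was left out (adjusted p up to 0.106 over 16 alternatives). Angptl1 lost it against Con without Con replicate 3 (up to 0.0808) and against Vitro without Con replicate 3, Vivo replicate 2, Vivo replicate 3 or any 1 of the Vitro replicates (up to 0.120). The third gene, Angptl2, was at 345 ± 112 CPM in Con, 190.0 ± 86.0 in Vitro and 233 ± 9.07 in Vivo. The share called was 66.7% of the 3 against Con, where 9.73% of all tested genes passed. Against Vitro it was 33.3%, where 10.9% passed.

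**Figure D2:**
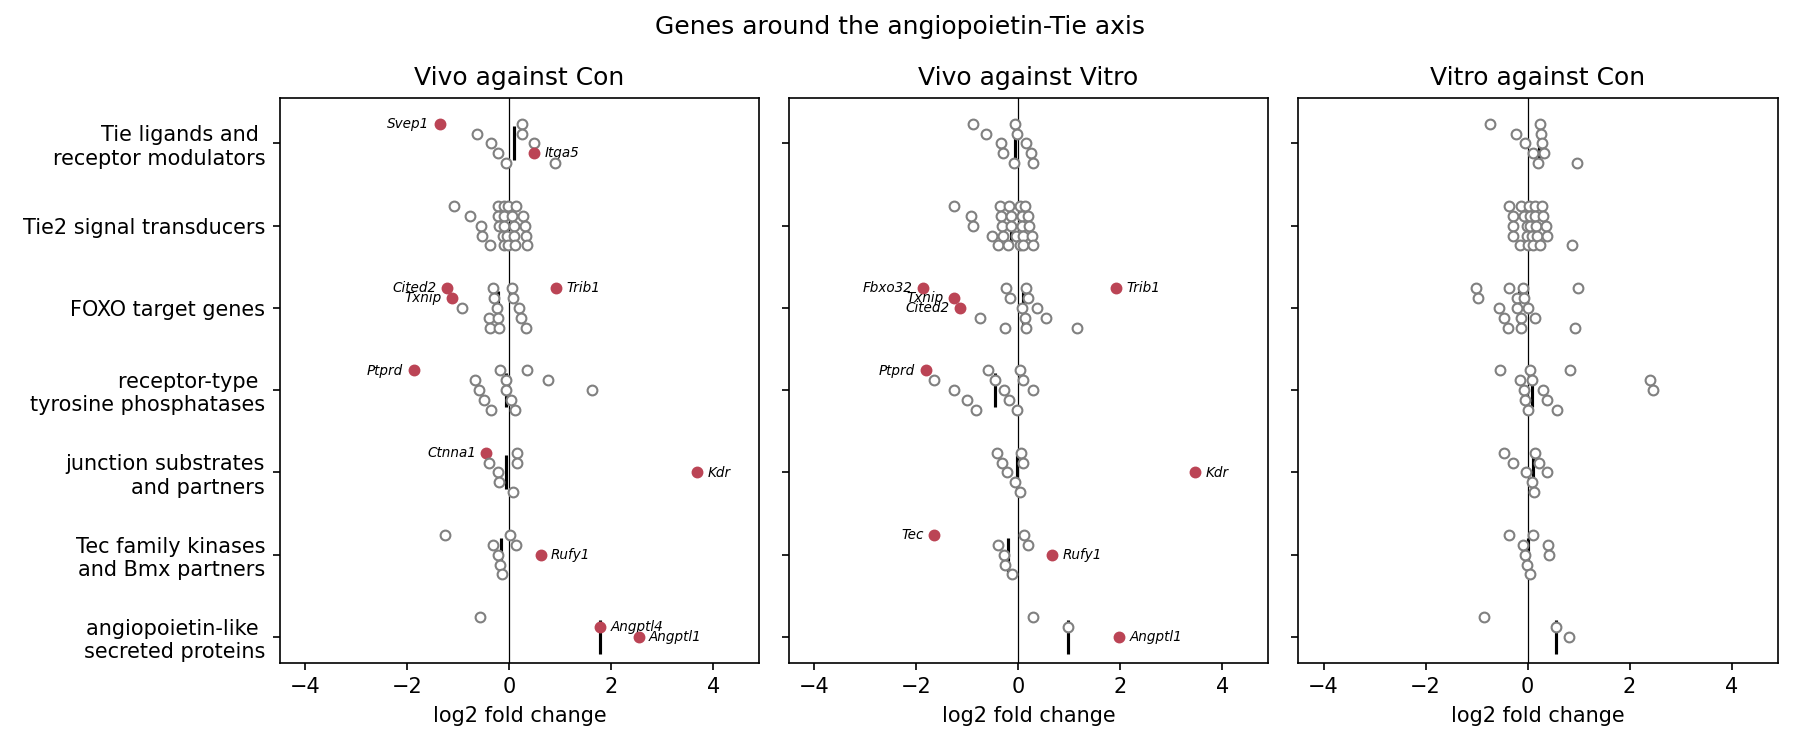
Log2 fold change (horizontal axis) of each tested gene of the 7 lists around the axis in the 3 comparisons. Each circle is 1 gene, red and named where the adjusted p was under 0.05, and the black bar is the list's median. Kdr at 3.69 and 3.46 lies farthest to the right in the 2 Vivo panels, Ptprd at -1.87 is the lowest in the first panel, and no gene is red for Vitro against Con.

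Since Ptprb, Tek, Tie1 and Angpt2 are themselves used as endothelial genes, the endothelial marker list was set beside them. Of the 20 markers measured, 13 were below the filter, and these summed to 0.509 to 3.01 CPM in Con, 0.432 to 0.744 in Vitro and 1.20 to 2.55 in Vivo. Cldn5 and Mmrn1 had no count in any library, and Vwf had 0 to 9 counts. Pecam1 was not analysed here. The whole list summed to 54.0 to 58.0 CPM in Con, 60.3 to 73.3 in Vitro and 71.3 to 74.6 in Vivo, most of it from Egfl7, Flt1 and, in Vivo, Kdr. Of the 7 tested markers Kdr and Flt4 rose against Con, or 28.6% where 9.73% of all tested genes passed. Against Vitro Kdr rose while Flt1 and Prox1 fell, or 42.9% where 10.9% of all tested genes passed. Flt1, the decoy VEGF receptor, was at 10.8 ± 3.22 CPM in Con, 28.5 ± 7.92 in Vitro and 12.6 ± 3.76 in Vivo (-1.18 ± 0.30 against Vitro, adjusted p = 0.034). In Vitro, where Ptprb was highest, Cdh5, Cldn5, Emcn, Mmrn1 and Sox18 had no count in any of the 3 libraries, Vwf had 6, 0 and 9 counts, and Flt1 and Prox1 had their highest means, that of Prox1 at 1.21 CPM against 0.896 in Con and 0.366 in Vivo.

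**Figure D3:**
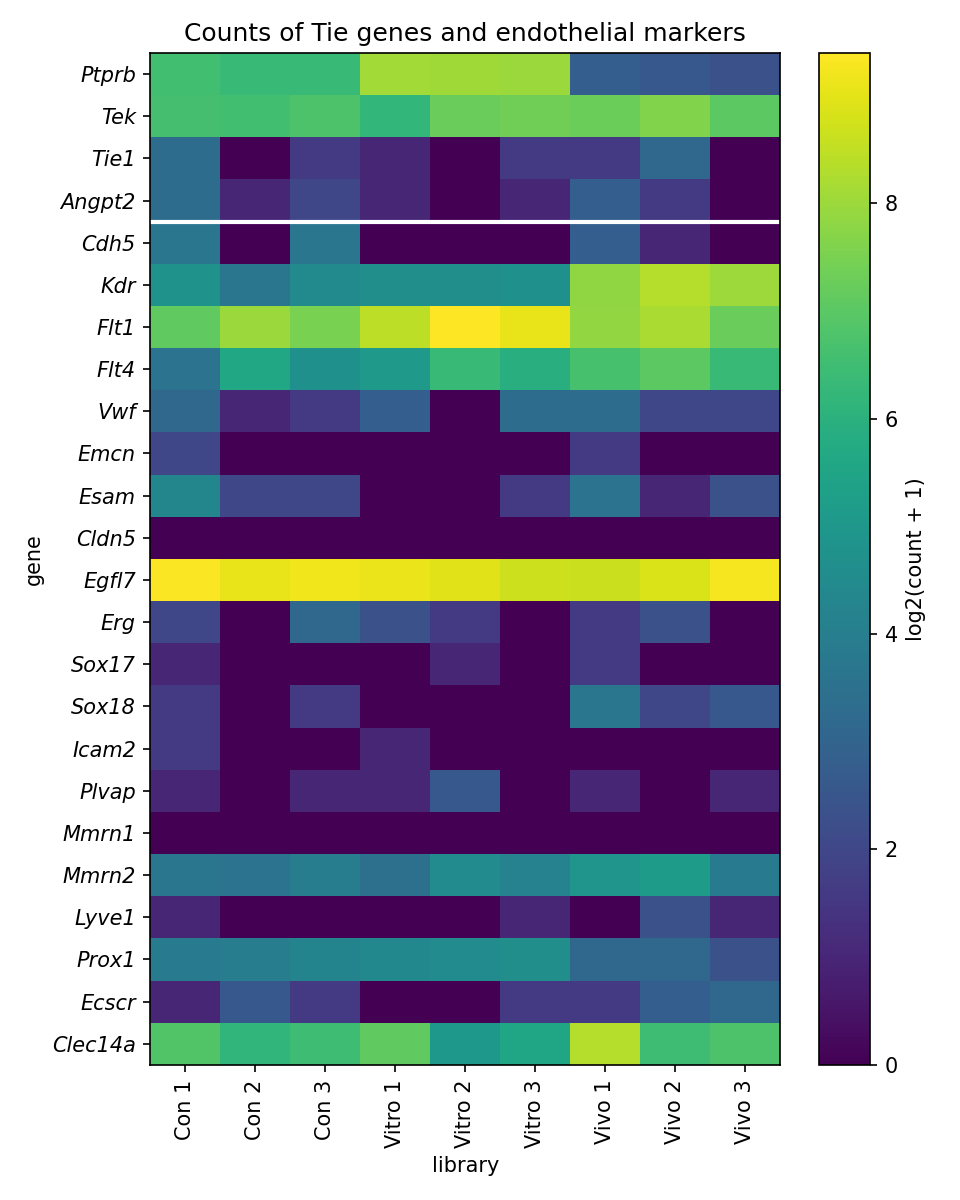
Counts in the 9 libraries (columns) of 4 Tie axis genes, above the white line, and of 20 endothelial markers, below it. Colour is log2(count + 1). Ptprb and Tek reach levels of 255 to 269 and 74 to 164 counts in the Vitro columns. There the markers Cdh5, Emcn, Cldn5, Sox18 and Mmrn1 are at 0, while Flt1 has 352 to 673 counts and Egfl7 414 to 552. Kdr is bright in the Vivo columns alone.

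Pericyte and mural markers, the other perivascular cells that express parts of this axis, were also measured. Of 8 tested genes Notch3, Cspg4 and Des rose and Myh11 fell against Con, or 50% where 9.73% of all tested genes passed. Against Vitro Notch3, Kcnj8, Abcc9, Des and Pdgfrb rose and Myh11 fell, or 75% where 10.9% passed. The Vitro level of this list also differed from Con. For Vitro against Con edgeR called 0 of the 8, with 6 at an unadjusted p under 0.05. DESeq2 called 4 and limma with sample quality weights 6, and the median log2 fold change was -0.55. Notch3, a receptor of mural cells, had 45, 9 and 29 counts in Con, 4, 3 and 0 in Vitro and 399, 271 and 110 in Vivo, and its groups did not overlap. Des rose in Vivo to 9.58 ± 0.815 CPM from 3.41 ± 0.946 in Con, and Myh11, of contractile smooth muscle, fell from 38.1 ± 4.32 to 9.77 ± 2.73. Rgs5 had 0 to 17 counts per library and Higd1b none. The list summed to 498 to 614 CPM in Con, 432 to 547 in Vitro and 589 to 717 in Vivo. The part of these cell types in the levels of the 6 genes was not tested.

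The genes with profiles most like those of Ptprb, Tek, Angpt1 and Bmx were sought among 9705 tested genes with an established symbol and at least 5 CPM in their highest group. Likeness was the root mean square difference of log2 CPM, each gene centred on its own mean, over the 9 libraries. The 5 closest to Ptprb were Rassf4 at 0.64, Myocd at 0.65, Scube3 at 0.68, Adamtsl3 at 0.73 and Pappa2 at 0.74 log2 units. Rassf4 was at 84.9 ± 27.0 CPM in Con, 112 ± 40.1 in Vitro and 6.11 ± 1.19 in Vivo. Myocd, which encodes the smooth muscle coactivator myocardin, followed the 3 levels of Ptprb at 2.40 ± 0.530, 5.93 ± 0.532 and 0.312 ± 0.109 CPM, and Pappa2, which cleaves insulin-like growth factor binding proteins, was at 8.88 ± 3.04, 31.0 ± 6.35 and 0.533 ± 0.504 CPM. The 3 closest to Bmx were Rassf4 at 0.54, Ch25h at 0.67 and Nkd2 at 0.70 log2 units, so Rassf4 was the closest gene to both. For Tek they were Cntln at 0.15, Paxip1 at 0.17 and Sclt1 at 0.17, and for Angpt1 they were Masp1, a serine protease of the lectin complement pathway, at 0.23, Npr3 at 0.25 and Ppp1r3b at 0.30. These are descriptions of 9 libraries that share their groups and normalisation.

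**Figure D4:**
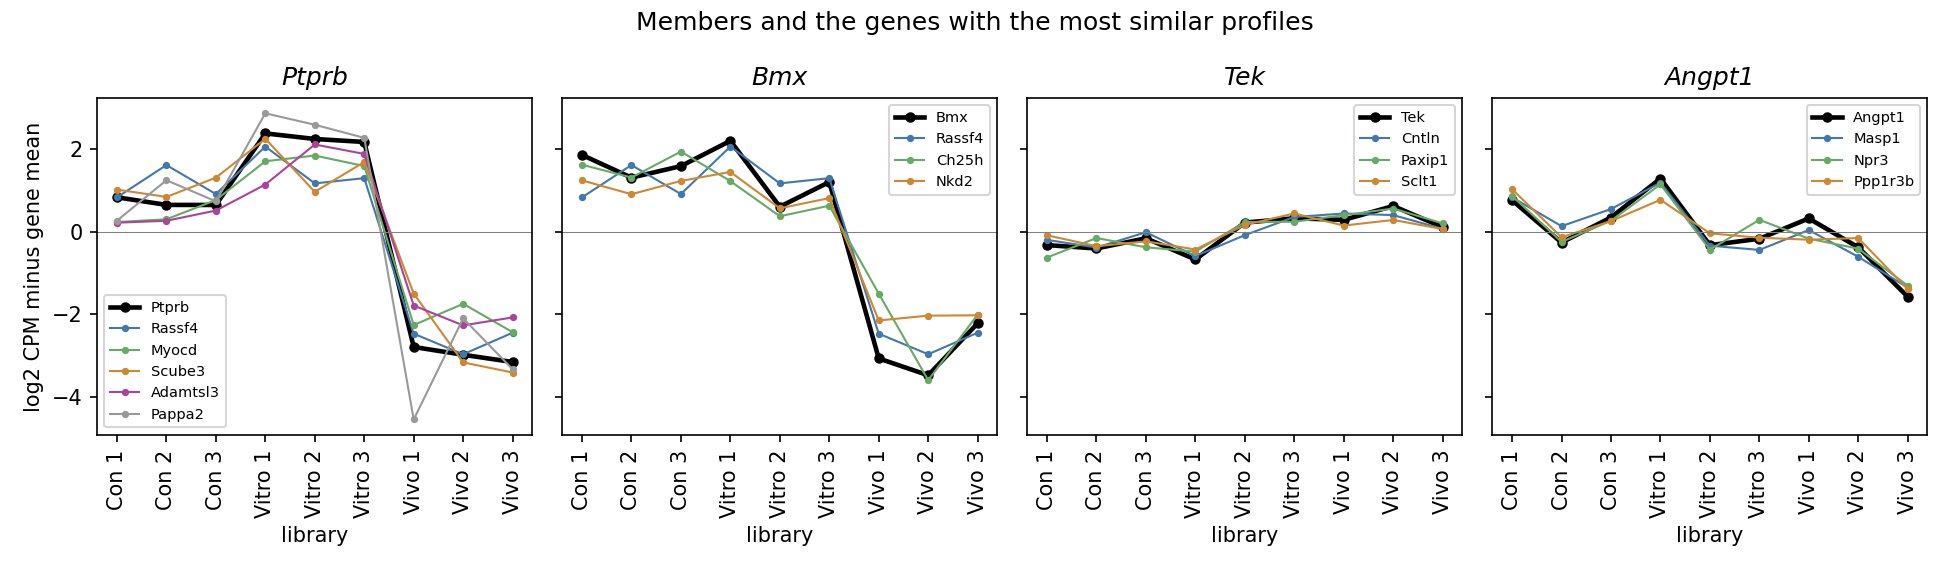
Centred log2 CPM (vertical axis, log2 CPM minus the gene's mean over all libraries) in the 9 libraries (horizontal axis) for Ptprb, Bmx, Tek and Angpt1, in black, and for the 5 or 3 genes most like each, in colour. Ptprb and Bmx with their neighbours drop between the Vitro and Vivo libraries, while Tek and Angpt1 stay within 2 log2 units of their means and share dips in single libraries with theirs.

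Angpt1 and Bmx also varied together within the cultured groups. Vitro replicate 1 was the highest of the 6 cultured libraries for both genes, at 86.3 CPM for Angpt1 and 8.39 for Bmx. Con replicates 1 and 3 were second and next in both, and Vitro replicate 2 was the lowest in both, at 28.1 and 2.70 CPM. In Vivo the order parted, since Vivo replicate 3 was the lowest Vivo library for Angpt1 at 11.8 CPM and the highest for Bmx at 0.286. Ptprb did not share this spread, with all 3 Vitro libraries between 13.5 and 15.7 CPM. The order in the cultured libraries is not particular to Angpt1 and Bmx. Sesn3, of the FOXO list, had 308, 148 and 195 counts in Con and 321, 140 and 144 in Vitro, and was taken after its values were seen. How many genes share the order was not tested.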

How the data were processed

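RNA-seq was done on 9 libraries of rat ADSCs, 3 each of Con, Vitro and Vivo, made from total RNA with a stranded mRNA kit, per the labels' protocols. The authors deposited 1 table with read counts and FPKM values (fragments scaled by gene length and library size) for each gene and library, per the file headers. Reads were aligned with HISAT2 and the build was Rnor_6.0, per the submitters' processing notes; not given in the sources used here are the counter, its strand setting and the versions. The table held 0 columns of samples outside the series.

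Deposited counts were filtered with edgeR's filterByExpr, scaled by TMM and fitted with a quasi-likelihood model to all 9 libraries (edgeR 4.0.16, R 4.3.3), with Benjamini-Hochberg adjustment over 12364 genes and a threshold of 0.05. FPKM values were used as deposited to compare genes per length. Alternatives were DESeq2 1.42.0, limma 3.58.1 with sample quality weights, other scaling and filters, 2 groups alone, the replicate number as a block, and each library left out. The scripts were tested on simulated data. Figures were drawn with matplotlib 3.10.9.

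The 6 genes and the gene lists were chosen with earlier results of these data known. From each list and comparison up to 4 called genes with the lowest adjusted p were named, or the most abundant tested gene where none was called, beside a fixed set of cell type markers and the genes with the most similar profiles (log2 CPM with a prior count of 2). Notch3, Cspg4, Kcnj8, Abcc9, Pdgfrb, Des, Myh11, Flt4, Prox1, Egfl7, Cd14, Csf1r, Iqgap1, Fgd5, Ptprj, Ptprq, Ptpro and the other low genes of the lists were named after their values were seen. Promoter sequences are from RefSeq.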

Additional observations from a re-analysis of the deposited data

How the results depend on the processing

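Directions did not reverse under any of 16 alternatives for the called genes of the 7 lists. Values under the alternatives are not given here for single cell type markers or for Dpysl4, Egr3 and LOC100910882. The order below is Vivo against Con, Vivo against Vitro and Vitro against Con. Of 7 tested endothelial markers DESeq2 called 2, 3 and 1 and limma 5, 4 and 3. Of 8 tested pericyte and mural markers DESeq2 called 6, 6 and 4 and limma 6, 6 and 6. Of 8 tested stromal markers edgeR called 0, 1 and 0, DESeq2 1, 2 and 0 and limma 4, 4 and 5. Over all genes DESeq2 called 2087, 2129 and 299, limma with sample quality weights 3458, 2852 and 2690, and each pair of groups fitted alone 667, 861 and 0. Leaving out 1 library gave 341 to 1706, 661 to 1660 and 0 to 54. By list, DESeq2 called 1 Tie modulator against Vitro, 1 Tek transducer in each Vivo comparison, 7 FOXO targets against Vitro and 3 for Vitro against Con, 2 and 1 phosphatases in the same 2 comparisons, 2 junction genes against Vitro and 2 Tec or Bmx genes against Con. Limma called 7, 2 and 5 Tie modulators, 3, 2 and 4 transducers, 7 FOXO targets in each of the last 2 comparisons, 2 and 4 phosphatases there, 2 and 3 junction genes there, and 2 Tec or Bmx genes and 2 angiopoietin-like genes for Vitro against Con. Pairs of groups alone left 0 Tie modulators, 1 junction gene, 0 Tec or Bmx genes and 0 angiopoietin-like genes against Con, and 0 Tec or Bmx genes against Vitro. With no filter there were 1 Tie modulator, 2 phosphatases and 2 junction genes against Vitro, and 1 junction gene and 0 Tec or Bmx genes against Con. DESeq2-style size factors gave 2 junction genes against Vitro. Leaving out 1 library gave, against Con, 0 to 5 Tie modulators, 1 to 3 junction genes, 0 to 1 phosphatases, 0 to 1 Tec or Bmx genes and 0 to 2 angiopoietin-like genes, and against Vitro 0 to 1 Tie modulators, 1 to 2 junction genes, 0 to 2 Tec or Bmx genes, 0 to 1 angiopoietin-like genes and 0 to 1 transducers. The fits on fewer groups or libraries also held fewer libraries, and the cause of these shifts was not tested.

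The replicate numbers are not stated to pair libraries. Deviations from the group means correlated at -0.015 to 0.358 between libraries of the same number, and at -0.339 to 0.099 between libraries of different numbers. The highest values were 0.358 for Con 1 with Vitro 1 and 0.324 for Con 2 with Vitro 2. The same number correlated best in 13 of 18 pairings. Libraries of 1 number may thus be related, and the main fit held no block for this. With the replicate number as a block edgeR called 7 genes for Vitro against Con, 1 Tie modulator, 2 phosphatases and 1 junction gene against Con, and 1 Tie modulator, 1 Tec or Bmx gene and 0 angiopoietin-like genes against Vitro. Itga5 and Ctnna1 against Con and Tec and Angptl1 against Vitro lost their calls with the block.

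Log2 fold changes of Ptprb lay between -4.24 and -3.91, -5.81 and -5.46, and 1.52 and 1.64 over the alternatives, and those of Bmx between -5.98 and -4.77, and -5.85 and -4.47 in the Vivo comparisons. Those of Angpt1 spanned -0.59 to 0.39 and those of Bmx -0.68 to 0.19 for Vitro against Con, so neither has a fixed sign there. Depth limits Tie1, Angpt2 and the Vivo values of Ptprb and Bmx, which rest on few counts.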

Other observations

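Genes beside Ptprb and Bmx in the RefSeq order were also measured. Ptprr, next to Ptprb and also a phosphatase, had 1, 1 and 2 counts in Con, 1, 1 and 3 in Vitro and 0, 7 and 4 in Vivo, and Kcnmb4 on the other side, a potassium channel subunit, had 3 to 25 counts per library with overlapping groups. Pir, next to Bmx, had 429, 493 and 392 counts in Con, 720, 617 and 555 in Vitro and 339, 367 and 286 in Vivo. Vivo was lowest and Vitro highest for Pir, with no overlap between groups. Of all tested genes 33.5% did not overlap for Vivo against Con, 35.2% for Vivo against Vitro and 21.4% for Vitro against Con. Pir was named after its values were seen, so nothing is read from its place beside Bmx.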
